A study of Homo sapiens with 12 samples.

Results

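The genes of DNA replication and of entry into S phase, 51 in number, were followed across 12 Affymetrix expression arrays of human acute myeloid leukaemia cells. They were chosen by name, as components of the replication machinery and regulators of the G1/S transition. All 51 of the 51 listed genes had at least 1 probe set assigned to a single gene, among 11963 genes in the table. Where a gene had several, the probe set brightest on average across the arrays stood for it. A single probe set served 29 of them, and 22 had several, with 81 probe sets in all.

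There were 4 groups of 3 arrays. MV4-11 cells carried either an shRNA against CHD4 or a scrambled shRNA, and U937 cells likewise carried either the CHD4 shRNA or the scrambled one. The hairpins came from lentiviral vectors that also express green fluorescent protein, so every group carried a vector and the marker protein. MV4-11 is an established myelomonocytic line with an MLL fusion and an internal tandem duplication in FLT3, and U937 is an established monocytic line. CHD4 is a chromatin remodelling ATPase, best known from the NuRD complex. How many hairpin sequences were used, how transduced cells were selected, the time of harvest and the cell cycle distribution are not stated in the labels.

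Replication begins when the origin recognition complex, with CDC6 and CDT1, loads the MCM helicase onto DNA in G1. Cyclin E with CDK2 and the kinase CDC7 then drive the loaded helicase into an active form, and the polymerases, the sliding clamp and the enzymes of lagging-strand maturation follow the fork. Many of these genes are transcribed at the G1/S boundary under E2F factors, so their transcripts are commonly read as a sign of cycling cells. In bulk RNA, fewer cells in S phase and less RNA per cell cannot be told apart.

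All values below are log2 values made with RMA by the authors, so a difference of 1 is a 2-fold difference, and a level is not compared between genes. CHD4 itself measured 8.79, 8.85 and 8.39 in MV4-11 CHD4 shRNA arrays, against 10.65, 10.69 and 10.68 in MV4-11 scrambled arrays. It measured 8.23, 8.13 and 8.45 in U937 CHD4 shRNA arrays, against 10.31, 10.38 and 10.71 in U937 scrambled arrays. In both lines the groups were separate, at 3.99-fold and 4.58-fold lower with the shRNA in MV4-11 and U937 (limma adjusted p = 1.35e-05 and 8.78e-06; exact two-sided permutation p = 0.1 in each line, the smallest that 3 against 3 arrays can give). The target is written CDH4 in the sample labels and CHD4 in the series text. FLT3 averaged 9.99 in MV4-11 scrambled arrays and 6.64 in U937 scrambled arrays, whereas the myeloid genes LYZ and CEBPA were bright in all 4 groups (group means of 13.24 to 13.73 and of 11.30 to 11.62). The myeloid genes SPI1 and MPO were dim throughout, with group means of at most 6.54 and 5.78 beside array medians of 6.97 to 7.02. Of 5 lymphoid markers, CD2 alone passed the threshold, at 1.77 higher in MV4-11 and 1.40 higher in U937 with the CHD4 shRNA (limma adjusted p = 1.38e-04 and 7.02e-04). The group means of the other lymphoid markers lay between 4.38 and 6.48, and the part of CD2-expressing cells in the results below was not tested. The myeloid gene FCER1G was 1.41 higher in MV4-11 and 1.25 higher in U937 with the CHD4 shRNA (limma adjusted p = 0.00169 and 0.00353).

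With a CHD4 shRNA, 1 of the 51 replication genes passed in each line and 6 in the average of both, split in direction, when the arrays of a group were fitted as unpaired replicates. In MV4-11, cyclin E2 (CCNE2) rose and no member fell in that fit, which makes 1 of 51 (1.96%) past an adjusted p of 0.05 against 9.42% of all genes tested (4.73% higher and 4.69% lower). In U937, DNA ligase 1 (LIG1) fell and no member rose, again 1 of 51, against 6.36% of all genes (2.67% higher and 3.69% lower). With both lines averaged, 3 members rose (CCNE2, CDK2 and E2F3) and 3 fell (LIG1, RFC4 and ORC5), so 6 of 51 (11.8%) passed against 18.8% of all genes (8.72% higher and 10.0% lower). Pairing the MV4-11 arrays by replicate number, where same-numbered arrays deviated together, changed these calls. In MV4-11, 6 of 51 (11.8%) then passed, against 15.9% of all genes, with CCNE1, CCNE2, TK1, RRM2 and GINS1 higher and LIG1 lower. In the average 8 (15.7%) passed, against 24.3% of all genes. Calls named by gene below are from the unpaired fit unless the pairing is named. All of the members that rose in the unpaired average are G1/S regulators, while ORC5 belongs to the origin recognition complex, RFC4 to the clamp loader and LIG1 to the joining of Okazaki fragments.

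The median change over the 51 members was 0.15 in MV4-11, with 38 above 0 and 13 below, while the median of all genes was -0.03. In U937 it was -0.08, with 20 above 0 and 31 below, against -0.0033 for all genes. Both medians moved with single arrays. Without MV4-11 scrambled replicate 3 the MV4-11 median was 0.05, with 30 members above 0 and 21 below, and without MV4-11 CHD4 shRNA replicate 2 it was 0.10. In U937 it was 0.035 without scrambled replicate 3, -0.16 without scrambled replicate 2, and -0.0067, -0.0083 and -0.14 without CHD4 shRNA replicate 1, 2 and 3. All but 2 of the members changed by less than 0.5 in each line, the exceptions being CCNE2 and FEN1 in MV4-11 and CCNE2 and LIG1 in U937. At an unadjusted p under 0.05 the members reached 13 of 51 (25.5%) in MV4-11, against 24.5% of all genes, and 6 of 51 (11.8%) in U937, against 19.0%. The share of members past this looser limit was near that of all genes in MV4-11 and below it in U937.

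**Figure D1:**
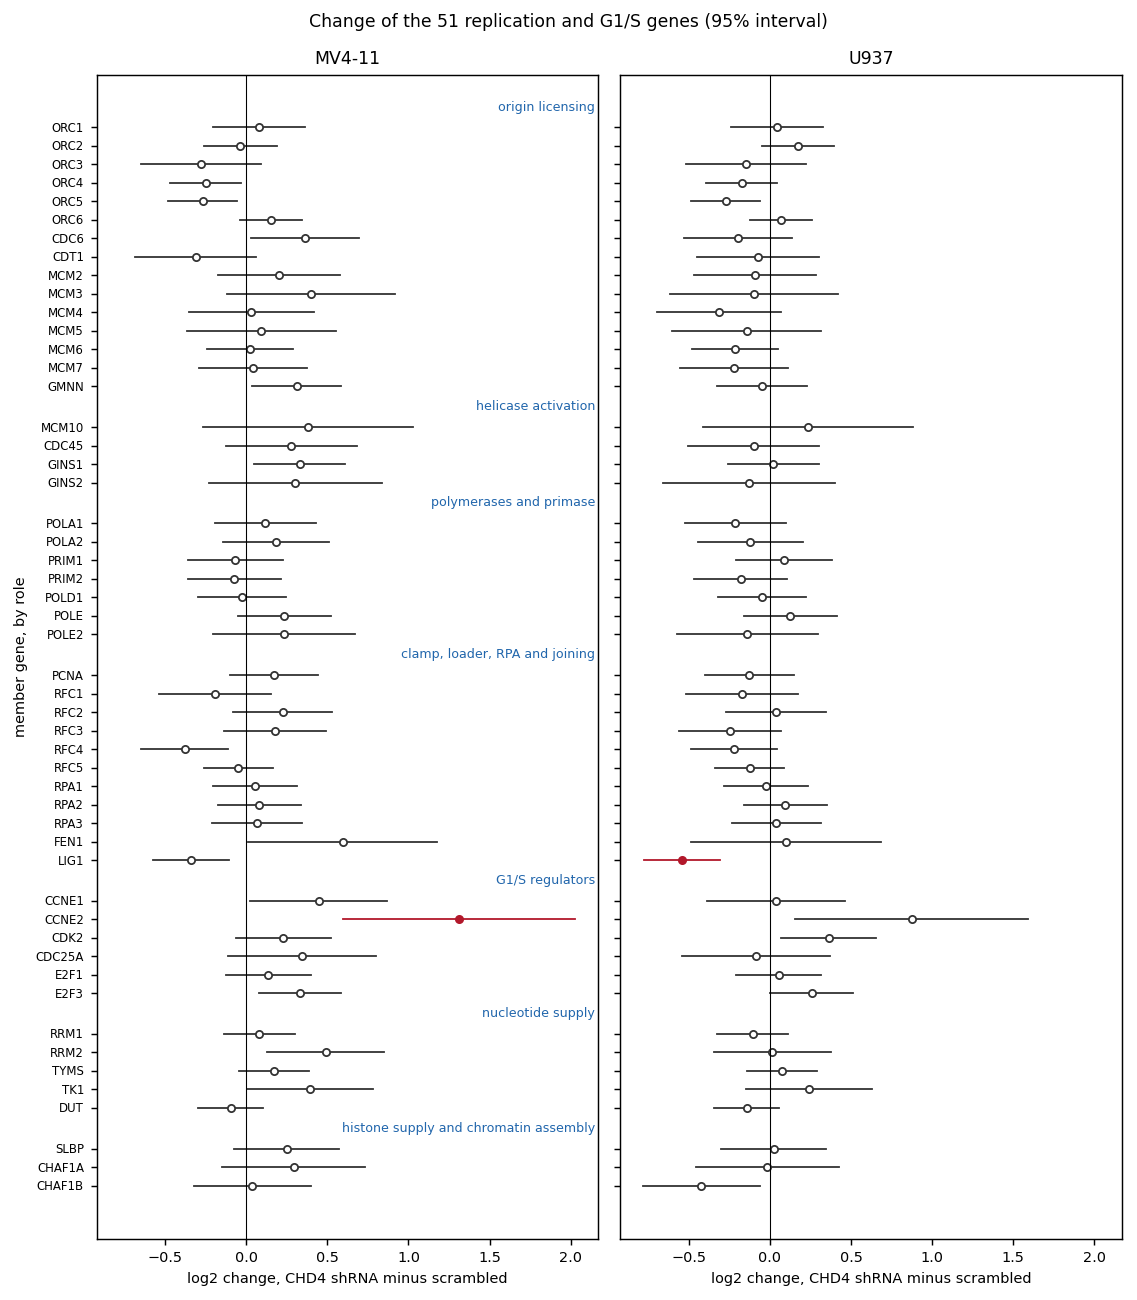
Change of each of the 51 genes with the CHD4 shRNA (log2, CHD4 shRNA minus scrambled shRNA), MV4-11 on the left and U937 on the right, grouped by role, with 95% intervals from the limma fit. Filled red points passed an adjusted p of 0.05 in the unpaired fit drawn here; only CCNE2 did in MV4-11 and only LIG1 in U937, and most intervals cross 0.

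The start regions of these genes were read because E2F factors are background regulators of the family and E2F3 is itself a member that rose. RefSeq start regions (GRCh38.p14, 250 bases before to 50 bases after the annotated start) were in the table for 45 of the 51 genes. They were searched on both strands for the 8-base words TTTCCCGC, TTTCGCGC, TTTGCCGC and TTTGGCGC, forms of the E2F recognition sequence. At least 1 word lay in the start region of 22 of the 45 genes (48.9%), against 1090 of all 27305 genes of the table (3.99%). Counted by start region, 22 of 60 held one (36.7%), against 3.31% of all 35116. By role, a word was found for 8 of 13 origin licensing genes, 2 of 4 helicase activation genes, 4 of 7 polymerase and primase genes, 3 of 9 clamp, RPA and joining genes, 3 of 4 G1/S regulators, 2 of 5 nucleotide genes and 0 of 3 histone and assembly genes. The words share letters and can overlap, and a match describes the letters alone.

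Printed here are the members with a start region used here that changed in the average of both lines. Beside them is MCM6, which held 4 overlapping words and did not pass. All run 5′ to 3′ along the gene, and capitals mark the words. LIG1 lies at chr19:48170295-48170594 on the minus strand, with its word at position -114 from the start. E2F3 is given at the start region of its 2 that held a word, chr6:20401629-20401928 on the plus strand, at position -53. RFC4 at chr3:186806433-186806732 and ORC5 at chr7:104207964-104208263, both on the minus strand, held none. MCM6 lies at chr2:135876394-135876693 on the minus strand.
LIG1: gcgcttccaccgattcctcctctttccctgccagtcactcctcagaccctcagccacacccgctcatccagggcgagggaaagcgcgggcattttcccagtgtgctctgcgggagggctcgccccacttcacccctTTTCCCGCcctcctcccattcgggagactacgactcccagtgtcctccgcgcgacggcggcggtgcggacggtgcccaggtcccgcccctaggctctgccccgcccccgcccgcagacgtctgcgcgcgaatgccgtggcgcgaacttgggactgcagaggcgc
E2F3: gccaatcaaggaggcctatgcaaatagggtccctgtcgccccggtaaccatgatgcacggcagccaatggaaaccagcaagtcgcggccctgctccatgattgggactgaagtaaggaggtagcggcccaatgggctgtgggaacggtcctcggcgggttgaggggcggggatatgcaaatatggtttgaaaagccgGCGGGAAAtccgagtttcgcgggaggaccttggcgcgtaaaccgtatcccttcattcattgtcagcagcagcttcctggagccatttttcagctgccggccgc
RFC4: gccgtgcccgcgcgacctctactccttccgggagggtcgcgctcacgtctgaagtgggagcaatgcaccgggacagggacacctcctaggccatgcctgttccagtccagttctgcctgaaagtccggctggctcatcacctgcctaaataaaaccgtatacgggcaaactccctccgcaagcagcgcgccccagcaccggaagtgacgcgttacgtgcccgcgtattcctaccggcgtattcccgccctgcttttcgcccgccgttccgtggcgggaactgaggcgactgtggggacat
ORC5: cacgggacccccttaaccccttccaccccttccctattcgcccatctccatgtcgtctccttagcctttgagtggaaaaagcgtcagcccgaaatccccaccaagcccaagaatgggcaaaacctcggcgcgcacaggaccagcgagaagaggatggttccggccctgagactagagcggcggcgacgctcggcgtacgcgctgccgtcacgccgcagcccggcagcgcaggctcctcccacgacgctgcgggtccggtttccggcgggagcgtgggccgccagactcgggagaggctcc
MCM6: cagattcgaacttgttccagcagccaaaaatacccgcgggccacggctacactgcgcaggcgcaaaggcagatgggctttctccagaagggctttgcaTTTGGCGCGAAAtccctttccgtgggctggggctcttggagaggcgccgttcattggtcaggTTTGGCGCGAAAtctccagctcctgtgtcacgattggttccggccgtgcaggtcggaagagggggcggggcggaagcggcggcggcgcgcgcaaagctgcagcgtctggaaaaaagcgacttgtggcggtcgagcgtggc
MCM6, printed for its words and as a member that did not pass, differed by 0.02 in MV4-11 and -0.22 in U937 (limma adjusted p = 0.939 and 0.377). The relation of words to change was not tested.

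Among the G1/S regulators, all 6 lay above 0 in MV4-11 and 5 of 6 in U937, with medians of 0.34 and 0.16. CCNE2, one of the cyclins that activate CDK2, measured 9.52, 9.93 and 8.86 in MV4-11 CHD4 shRNA arrays, against 8.19, 8.09 and 8.09 in MV4-11 scrambled arrays. It measured 8.16, 8.35 and 9.58 in U937 CHD4 shRNA arrays, against 7.66, 7.62 and 8.19 in U937 scrambled arrays. Every MV4-11 array with the CHD4 shRNA was above every scrambled one, whereas in U937 the groups overlapped and replicate 3 was the highest on both sides. CCNE2 rose 2.49-fold in MV4-11 (log2 1.31 ± 0.33 SE, 95% interval 0.60 to 2.03; limma adjusted p = 0.0269). In U937 the difference was 0.87 ± 0.33 SE (interval 0.16 to 1.59; adjusted p = 0.157), and averaged over both lines CCNE2 rose 2.13-fold (adjusted p = 0.00612). Its second probe set, in a fit over all probe sets, gave 1.31 in MV4-11 (adjusted p = 0.0463) and 1.08 in the average (adjusted p = 0.0130). The MV4-11 call was lost without scrambled replicate 1, 2 or 3 or CHD4 shRNA replicate 1 or 2 (changes of 1.07 to 1.35, adjusted p between 0.0597 and 0.0967), and the average held without any 1 array.

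CDK2, the kinase partner of cyclin E (chr12:55966830-55972789, GRCh38.p14), measured 9.64, 9.68 and 9.73 in MV4-11 CHD4 shRNA arrays and 9.38, 9.56 and 9.43 in MV4-11 scrambled arrays. In U937 it measured 9.38, 9.53 and 9.82 with the CHD4 shRNA and 9.02, 9.12 and 9.50 with the scrambled one. The arrays separated in MV4-11 and overlapped in U937. CDK2 rose by 0.30 ± 0.10 SE on average (1.23-fold; limma adjusted p = 0.0483). This call was at the edge of the threshold: its 2 other probe sets gave 0.19 and -0.04, neither past it, the mean of the 3 gave 0.15 (adjusted p = 0.201), and the call was lost in 10 of 12 fits that left out 1 array (adjusted p up to 0.123), the exceptions being U937 CHD4 shRNA replicate 1 and U937 scrambled replicate 3.

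E2F3, a transcription factor that activates S-phase genes (chr6:20401879-20493714), measured 9.34, 9.47 and 9.19 in MV4-11 CHD4 shRNA arrays and 8.89, 9.00 and 9.12 in MV4-11 scrambled arrays. It measured 9.14, 9.13 and 9.45 in U937 CHD4 shRNA arrays and 8.85, 9.01 and 9.09 in U937 scrambled arrays. E2F3 was the sole member whose groups separated upward in both lines. The average rise was 0.29 ± 0.08 SE (1.23-fold; limma adjusted p = 0.0256), and a second probe set gave 0.17 (adjusted p = 0.253). The mean of both probe sets ended the call at 0.23, as did leaving out MV4-11 CHD4 shRNA replicate 1 or 2, MV4-11 scrambled replicate 1 or 2, U937 CHD4 shRNA replicate 3 or U937 scrambled replicate 1 (adjusted p between 0.0521 and 0.0704). Of the other regulators, cyclin E1 (CCNE1) averaged 8.95 ± 0.51 in MV4-11 CHD4 shRNA arrays and 8.50 ± 0.22 in MV4-11 scrambled arrays (SD, n = 3 each), with 8.12 and 8.08 in the U937 groups. The phosphatase CDC25A, which removes inhibitory phosphates from CDK2, and E2F1 differed by at most 0.34 in either line, and neither passed.

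**Figure D2:**
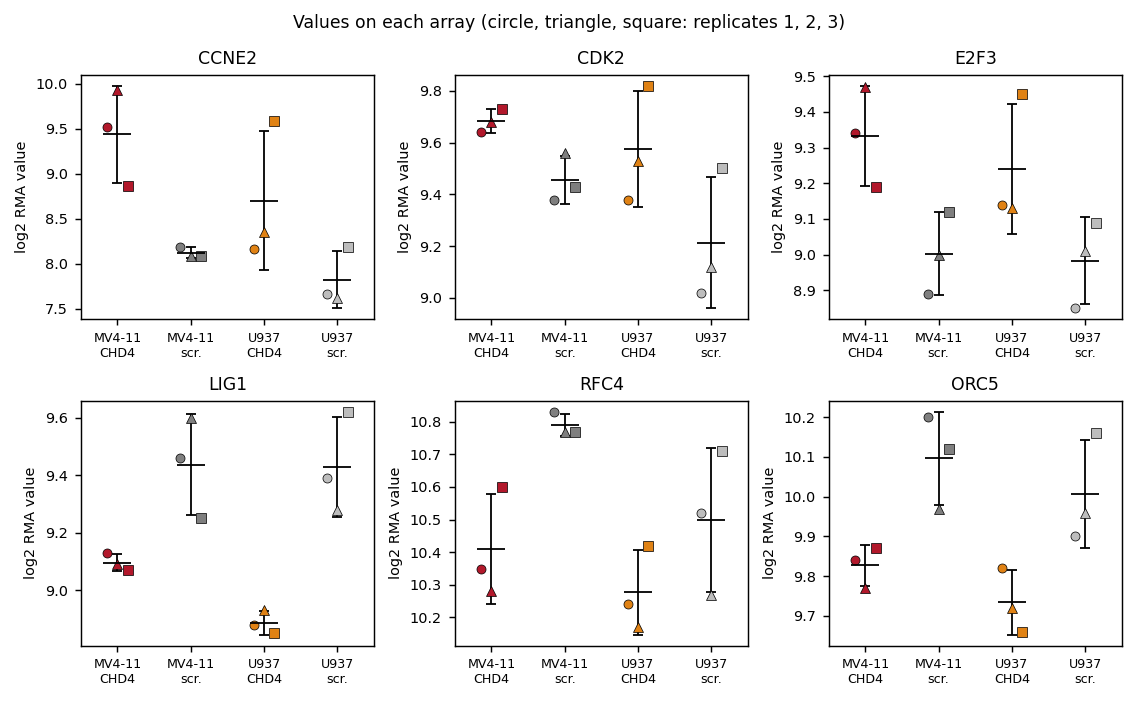
Log2 values of the 6 genes past the threshold in the average of both lines, 1 point per array, in MV4-11 CHD4 shRNA, MV4-11 scrambled, U937 CHD4 shRNA and U937 scrambled cells, with mean and SD. CCNE2 reaches 9.93 and 9.58 in single CHD4 shRNA arrays, and LIG1 is lower than every scrambled array of its line in all 6 CHD4 shRNA arrays.

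The clamp, clamp loader, RPA and joining genes held the clearest fall. LIG1 (chr19:48115445-48170344) seals nicks between Okazaki fragments. It measured 9.13, 9.09 and 9.07 in MV4-11 CHD4 shRNA arrays, against 9.46, 9.60 and 9.25 in MV4-11 scrambled arrays. In U937 it measured 8.88, 8.93 and 8.85 with the CHD4 shRNA, against 9.39, 9.28 and 9.62 with the scrambled one. In both lines the groups were separate, and the spread was tighter with the CHD4 shRNA (SD of 0.03 and 0.04) than in the scrambled arrays (0.18 and 0.17). LIG1 fell 1.46-fold in U937 (log2 -0.54 ± 0.11 SE, interval -0.78 to -0.31; limma adjusted p = 0.0115), a call kept in each of 20 alternative fits at this threshold. In MV4-11 the difference was -0.34 ± 0.11 SE (interval -0.58 to -0.10, limma adjusted p = 0.0698 unpaired, and 0.0466 with the MV4-11 arrays paired). The average of both lines was 1.36-fold lower (adjusted p = 0.00173).

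RFC4, a subunit of the clamp loader (chr3:186789900-186806482), measured 10.35, 10.28 and 10.60 in MV4-11 CHD4 shRNA arrays, against 10.83, 10.77 and 10.77 in MV4-11 scrambled arrays. It measured 10.24, 10.17 and 10.42 in U937 CHD4 shRNA arrays, against 10.52, 10.27 and 10.71 in U937 scrambled arrays. The MV4-11 groups were separate and the U937 groups overlapped. RFC4 fell by 0.30 on the log2 scale on average (1.23-fold; limma adjusted p = 0.0287). The call was lost (adjusted p between 0.0525 and 0.0708) without MV4-11 CHD4 shRNA replicate 1 or 2, MV4-11 scrambled replicate 1 or 2, U937 CHD4 shRNA replicate 1 or 2 or U937 scrambled replicate 1 or 3.

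The remaining members of this role did not pass in the unpaired fit. The clamp PCNA averaged 13.28 ± 0.14 in MV4-11 CHD4 shRNA arrays and 13.11 ± 0.22 in MV4-11 scrambled arrays, and 13.07 ± 0.10 and 13.20 ± 0.16 in the corresponding U937 groups (SD, n = 3 each). The single-strand binding subunits RPA1, RPA2 and RPA3 stayed within 0.09 of their scrambled means in both lines. FEN1, the flap endonuclease that trims Okazaki fragments, measured 11.10, 11.50 and 10.33 in MV4-11 CHD4 shRNA arrays, against 10.48, 10.62 and 10.05 in MV4-11 scrambled arrays. Its difference of 0.59 ± 0.27 SE was second in size to that of CCNE2 in MV4-11 and did not pass (limma adjusted p = 0.197). Replicate 3 was the lowest FEN1 value on both sides. Of the other clamp loader subunits, RFC2 was higher in every MV4-11 CHD4 shRNA array (10.10, 10.30 and 10.04) than in the scrambled ones (9.92, 9.96 and 9.89), a direction opposite to that of RFC4.

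In the origin licensing group, 1 of 15 members passed, in the average of both lines. ORC5, a subunit of the origin recognition complex (chr7:104126341-104208013), measured 9.84, 9.77 and 9.87 in MV4-11 CHD4 shRNA arrays, against 10.20, 9.97 and 10.12 in MV4-11 scrambled arrays. It measured 9.82, 9.72 and 9.66 in U937 CHD4 shRNA arrays, against 9.90, 9.96 and 10.16 in U937 scrambled arrays. The arrays separated downward in both lines, by 0.27 in each. The average fall was 1.21-fold (log2 -0.27 ± 0.07 SE; limma adjusted p = 0.0153), and it held in all 19 alternative fits at this threshold. A second ORC5 probe set also passed (-0.31; adjusted p = 0.0276), and the dimmest of its 3 did not (-0.10). ORC4, another subunit of the complex, was likewise separate and lower in both lines (-0.25 in MV4-11 and -0.17 in U937) and stopped short of the threshold on average (adjusted p = 0.0571).

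The 6 MCM helicase subunits (MCM2 to MCM7) did not pass in any comparison of the unpaired fit. In MV4-11 they differed by between 0.02 (MCM6) and 0.40 (MCM3), all above 0, and in U937 by between -0.31 (MCM4) and -0.09 (MCM2), all below 0. Their groups overlapped in both lines. MCM3, for example, measured 11.39, 11.54 and 10.88 in MV4-11 CHD4 shRNA arrays, against 11.25, 10.97 and 10.39 in MV4-11 scrambled arrays. With a replicate block within each line, MCM3 was called higher in MV4-11 (limma adjusted p = 0.0239) and MCM4 lower in U937 (0.0262). Matched by number, the U937 arrays differed by -0.34, -0.33 and -0.27 for MCM4. The helicase loader CDC6 differed by 0.36 in MV4-11 and -0.20 in U937, and CDT1 by -0.31 and -0.07. Geminin (GMNN), the inhibitor of CDT1, differed by 0.31 and -0.05.

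The helicase activators MCM10, CDC45, GINS1 and GINS2 lay above 0 in MV4-11, between 0.28 and 0.38, with overlapping arrays. In U937 they lay between -0.13 and 0.23. GINS1, a subunit of the active helicase complex, measured 11.20, 11.15 and 10.88 in MV4-11 CHD4 shRNA arrays, against 10.92, 10.81 and 10.51 in MV4-11 scrambled arrays. The difference was 0.33 (limma adjusted p = 0.132 unpaired, and 0.0421 with the MV4-11 arrays paired). All 7 polymerase and primase genes stayed within 0.23 of their scrambled means in both lines, and none passed. In that role the lowest p-values in MV4-11 belonged to POLE, the catalytic subunit of the leading-strand polymerase (0.23), and POLA2, the regulatory subunit of polymerase alpha (0.18). In U937 they belonged to POLA1 (-0.21) and PRIM2 (-0.18), the catalytic subunit of polymerase alpha and a primase subunit.

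Nucleotide supply and histone genes gave no call in the unpaired fit, whereas RRM2 and TK1 rose in MV4-11 with its arrays paired. RRM2, the regulated subunit of ribonucleotide reductase, measured 12.08, 12.44 and 11.94 in MV4-11 CHD4 shRNA arrays, against 11.77, 11.78 and 11.44 in MV4-11 scrambled arrays, without overlap (difference 0.49 ± 0.17 SE; limma adjusted p = 0.0852). In U937 the RRM2 difference was 0.01. Thymidine kinase (TK1) differed by 0.39 in MV4-11 and by 0.24 in U937, where its groups did not overlap. DUT, which removes dUTP, was lower in every U937 CHD4 shRNA array (13.47, 13.38 and 13.48) than in the scrambled ones (13.58, 13.51 and 13.67), by 0.14. The chromatin assembly subunit CHAF1B differed by -0.42 in U937 and 0.04 in MV4-11, CHAF1A by -0.02 and 0.29, and the histone mRNA binding protein SLBP by 0.02 and 0.25. With a replicate block within each line, U937 included, CHAF1B was called lower in U937 (limma adjusted p = 0.0119) and in the average (0.0322).

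Counted by separation alone, 10 of 51 members had arrays that did not overlap in MV4-11 (6 higher and 4 lower), against 25.6% of all genes (11.5% higher and 14.1% lower). In U937 there were 7 (2 higher and 5 lower), against 26.8% of all genes (12.2% higher and 14.6% lower). With both directions counted together, the share was below that of all genes in each line. The upward share in MV4-11 was near that of all genes. ORC4, ORC5 and LIG1 separated downward in both lines and E2F3 upward in both.

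**Figure D3:**
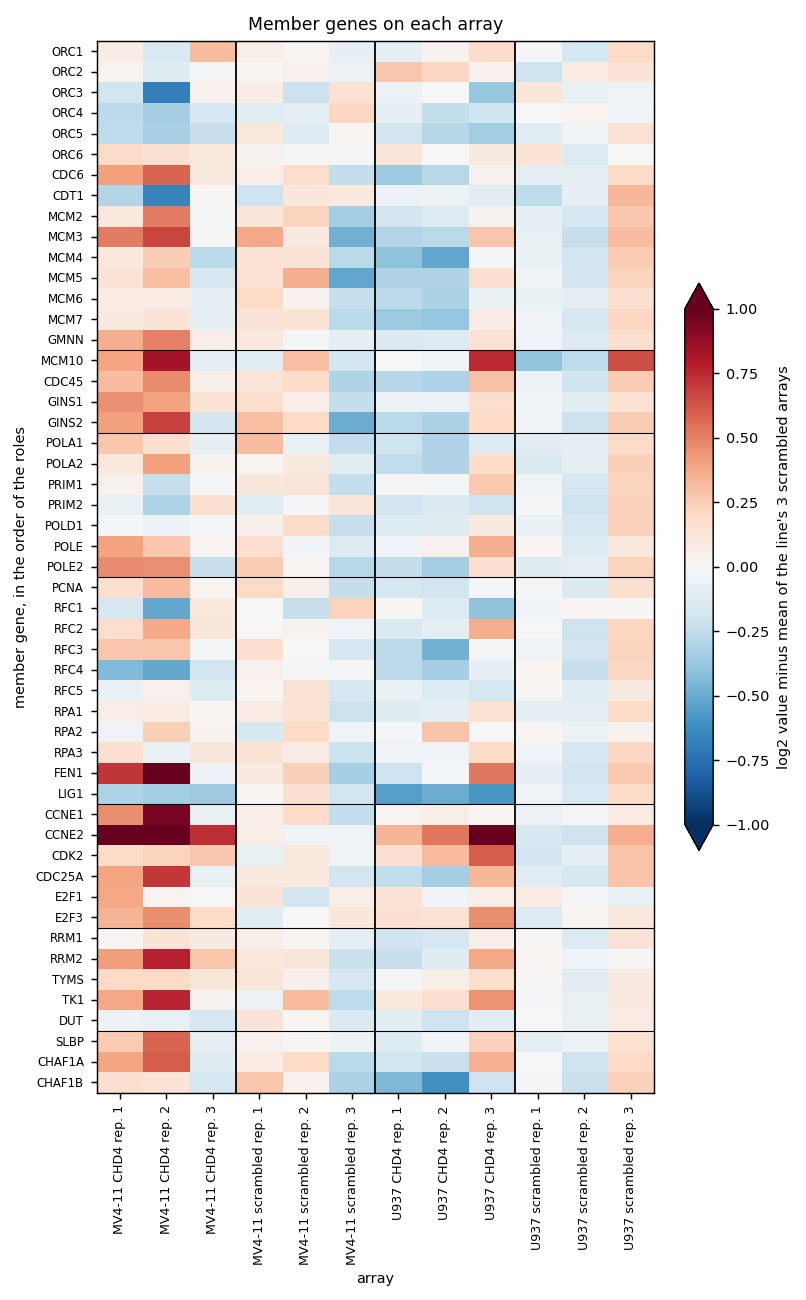
Deviation of each of the 51 genes (rows, by role) from the mean of its line's scrambled arrays, in log2 units, over the 12 arrays, with MV4-11 CHD4 shRNA first and U937 scrambled last. Whole columns differ in shade within a group: replicate 3 is the palest or bluest in both MV4-11 groups and the reddest in both U937 groups.

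The members moved together from array to array within a group. U937 scrambled replicate 3 held the highest of the 3 values for 45 of 51 members, while it did so for 36.7% of all genes. U937 CHD4 shRNA replicate 3 was the highest for 38 members (37.7% of all genes). In MV4-11 replicate 3 was at the other end, the lowest for 36 members with the CHD4 shRNA (34.6% of all genes) and for 38 with the scrambled shRNA (38.3% of all genes). The median deviation of the members from the scrambled mean of their line was 0.17, 0.24 and -0.0033 in the MV4-11 CHD4 shRNA arrays and 0.08, 0.06 and -0.18 in the MV4-11 scrambled arrays. It was -0.15, -0.13 and 0.09 in the U937 CHD4 shRNA arrays and -0.04, -0.13 and 0.19 in the U937 scrambled arrays. The array medians thus overlapped between the groups of both lines. Proliferation markers outside the list (MKI67, CCNB1, CCNB2, CDK1, TOP2A, AURKA, BUB1 and PLK1) had median deviations of 0.10, -0.06 and 0.37 in MV4-11 CHD4 shRNA arrays and -0.07, -0.08 and 0.12 in MV4-11 scrambled arrays. In U937 these were 0.14, 0.22 and 0.40 with the CHD4 shRNA and -0.11, -0.10 and 0.21 with the scrambled one. By this median the mitotic genes were highest in replicate 3 of both MV4-11 groups, where the replication genes were lowest, and the part of cell cycle position in the results was not tested.

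The replicate numbers were taken to pair the arrays in MV4-11, where arrays of the same number deviated together. The members' median within-pair difference was 0.08, 0.18 and 0.16 for pairs 1, 2 and 3, with 30, 33 and 41 of 51 members higher in the CHD4 shRNA array. Higher in all 3 pairs were 24 members (47.1%, against 23.1% of all genes), and lower in all 3 were 8 (15.7%, against 27.3%). The U937 numbers were not taken as pairs, with same-numbered arrays correlated at 0.0023, 0.351 and 0.336. Matched by number all the same, the U937 arrays gave median member differences of -0.10, -0.02 and -0.05. There 11, 23 and 18 of 51 members were higher with the CHD4 shRNA (21.6%, 45.1% and 35.3%, against 46.6%, 48.6% and 49.7% of all genes). With the replicate number as a block in MV4-11, 6 members (11.8%) passed in MV4-11, against 15.9% of all genes (8.14% higher and 7.77% lower). Those that rose were CCNE1 (adjusted p = 0.0166), CCNE2 (0.0202), TK1 (0.0256), RRM2 (0.0390) and GINS1 (0.0421), and LIG1 fell (0.0466). CCNE1 was 0.41, 0.76 and 0.17 higher in the 3 pairs, and TK1 0.44, 0.45 and 0.29 higher. Members called higher with this block were 9.8% of the list, near the 8.14% of all genes. Members called lower were 1.96%, below the 7.77% of all genes. A block within each line, U937 included, gave 16 members in MV4-11 (31.4%), against 19.7% of all genes. Of these, 14 were higher (27.5%, against 10.4% of all genes) and 2 lower (3.92%, against 9.25%). Added by it to the 6 were CDC25A, CDC45, CDC6, E2F3, FEN1, GINS2, GMNN, MCM10 and MCM3, which were higher, and RFC4, which was lower. The share of members called thus lay below or above that of all genes according to how the arrays were paired. In the average of both lines the block in MV4-11 gave 8 members (15.7%), against 24.3% of all genes, with CCNE1, TK1 and ORC4 added and CDK2 at an adjusted p of 0.0501. Which array was left out also moved the MV4-11 count: without CHD4 shRNA replicate 3 it was 10 (19.6%, against 16.4% of all genes), with CCNE1, CCNE2, CDC6, E2F3, FEN1, GINS1, GMNN, RRM2 and TK1 higher (17.6%, against 8.48% of all genes) and RFC4 lower (1.96%, against 7.93%). The average then gave 9 members (17.6%, against 22.5% of all genes). Without U937 CHD4 shRNA replicate 3 the MV4-11 count was 2, CCNE2 and RRM2. It was 0 without MV4-11 CHD4 shRNA replicate 1 or 2 or MV4-11 scrambled replicate 1 or 2, and without MV4-11 scrambled replicate 3 LIG1 alone passed.

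Whether the CHD4 shRNA effect differed between the lines was tested directly as MV4-11 minus U937. No member passed, and the same held for all genes tested (0%), in the limma fit. At an unadjusted p under 0.05 there was 1 of 51 members (1.96%), CDC6, against 4.56% of all genes. CDC6 measured 8.36, 8.53 and 8.04 in MV4-11 CHD4 shRNA arrays and 8.01, 8.12 and 7.71 in MV4-11 scrambled arrays, against 7.71, 7.79 and 8.11 in U937 CHD4 shRNA arrays and 7.97, 7.98 and 8.25 in U937 scrambled arrays. The difference between its changes was 0.56 ± 0.22 SE (interval 0.09 to 1.03; adjusted p = 0.937). Over the list, 42 of 51 differences lay above 0, with a median of 0.19, against 47.7% above 0 and a median of -0.01 for all genes. This median too moved with single arrays, to 0.12 without U937 scrambled replicate 3 (35 members above 0) or MV4-11 scrambled replicate 3 (37 above 0), to 0.29 without MV4-11 CHD4 shRNA replicate 3 and to 0.31 without U937 CHD4 shRNA replicate 3. Above 0 in MV4-11 and below 0 in U937 were 20 members (39.2%, against 13.7% of all genes). Above 0 in both lay 18 (35.3%, against 30.1%) and below 0 in both 11 (21.6%, against 36.2%). For LIG1 the difference was 0.20, with an interval of -0.13 to 0.54, and for CCNE2 0.44, with an interval of -0.57 to 1.45, so neither gene was shown to respond differently in the lines.

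Without CHD4 depletion the lines differed in 1 of 51 members, against 5.48% of all genes (2.51% lower in MV4-11). GINS1 (chr20:25407673-25448563) measured 10.92, 10.81 and 10.51 in MV4-11 scrambled arrays, against 11.30, 11.21 and 11.47 in U937 scrambled arrays. The groups were separate, and GINS1 was 1.49-fold lower in MV4-11 (log2 -0.58 ± 0.13 SE; limma adjusted p = 0.0201). The call was lost without MV4-11 scrambled replicate 2 or 3 or U937 scrambled replicate 1 or 3 (adjusted p between 0.0540 and 0.0931). Arrays did not overlap for 12 members, against 26.3% of all genes (11.9% higher and 14.4% lower in MV4-11). ORC1, ORC3, ORC4, CDT1, PRIM2, RFC4 and CCNE1 were higher in MV4-11, and GINS1, POLA1, RFC3, E2F1 and RRM2 lower. These scrambled arrays are also the controls of the depletion comparisons.

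Other genes of the same pathway, 62 of 68 listed having a usable probe set, are given as context. In the average of both lines 15 of them passed (24.2%, against 18.8% of all genes), 8 higher (12.9%, against 8.72%) and 7 lower (11.3%, against 10.0%), and the difference from the replication genes was not tested. In MV4-11 the G1 cyclin CCND3 measured 11.52, 11.94 and 10.68 with the CHD4 shRNA, against 10.41, 10.43 and 10.03 with the scrambled one (2.13-fold higher; limma adjusted p = 0.0216). The histone chaperone ASF1B was 1.32-fold higher in each line (adjusted p = 0.0217 in MV4-11 and 0.0279 in U937), and the repressor E2F8 was 1.41-fold higher in MV4-11 (adjusted p = 0.0364). In U937 the CDK inhibitor CDKN1C measured 7.24, 7.36 and 7.85 with the CHD4 shRNA, against 6.25, 6.16 and 6.67 with the scrambled one (2.18-fold higher; adjusted p = 0.0131). Cyclin D2 (CCND2) was 2.28-fold lower and topoisomerase TOP1 1.37-fold lower in U937 (adjusted p = 0.0294 and 0.0217). The other genes past the threshold on average, named after their values were seen, were CDKN1A, CDKN2D, SAMHD1 and TOPBP1, which were higher, and TFDP2, POLD2, DCTD, SKP2 and RNASEH2A, which were lower.

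**Figure D4:**
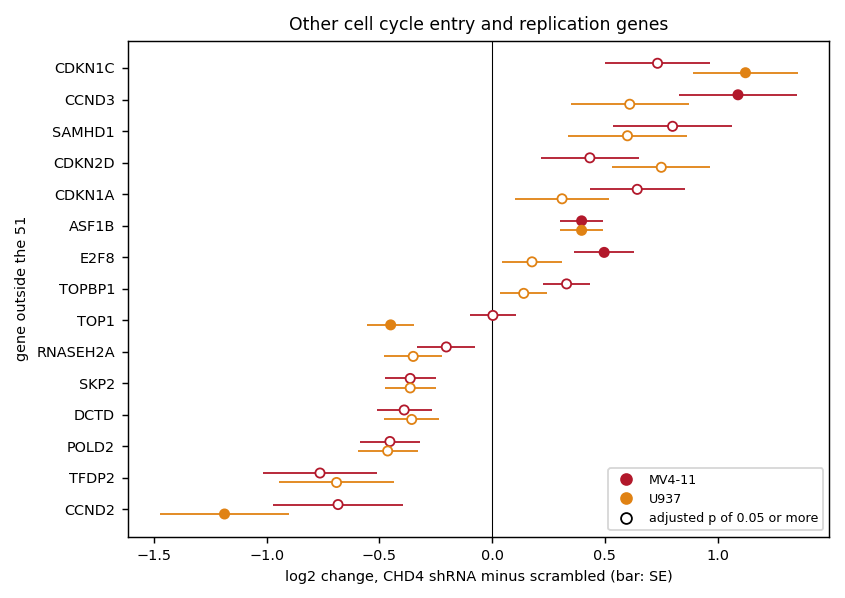
Change with the CHD4 shRNA (log2, CHD4 shRNA minus scrambled shRNA) of the 15 other genes of the pathway past the threshold in the average of both lines, MV4-11 and U937 side by side, with SE. CDKN1C and CCND3 stand highest at 1.12 and 1.09, and CCND2 lowest at -1.19.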

How the data were processed

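Total RNA from 12 cultures of established cell lines was hybridised to 1 array each. The authors deposited a table of log2 values. The submitters' processing notes name RMA, a method of background correction, quantile normalization and probe summary, with no version and no word on joint processing. Quantile normalization hides a shift common to most genes, and precision is limited by the number of arrays.

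It covered 22277 probe sets. Left out were 62 controls, 1043 with several gene symbols and 2108 not named in the platform annotation, so that 19064 with 1 symbol gave 11963 genes. PRIM2 had further probe sets shared with another gene, which were not used.

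One model of 4 group means was fitted to all 12 arrays with limma 3.58.1 in R 4.3.3 (lmFit, eBayes), with 8 residual and 4.66 prior degrees of freedom. Every p for a gene is from limma unless named exact, and adjusted p-values are Benjamini-Hochberg over all genes, with 0.05 as the threshold. The script was tested on simulated data. The series text calls the triplicates biological.

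Same-numbered MV4-11 arrays correlated at 0.457, 0.478 and 0.494 in their deviations from group means. Numbers in the titles were therefore taken to pair the MV4-11 arrays.

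The members, roles, pathway genes and markers were chosen with earlier results of these data known. Named with tests are members past the threshold and the 2 lowest p-values per role and line. Start regions are from RefSeq, GRCh38.p14, and 6 members (MCM4, MCM5, RPA2, RPA3, CCNE2 and CDK2) were not used there. No region on chromosome 8, where MCM4 and CCNE2 lie, was used for a member, and MCM5, RPA2, RPA3 and CDK2 had none. Alternatives were the dim-gene filter, renormalization, moderated variance with trend, probe set means, fits of 1 comparison's groups alone, replicate blocks, stricter and looser thresholds, and leaving out each array. The block in MV4-11 alone was added after seeing the data.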

Additional observations from a re-analysis of the deposited data

How the results depend on the processing

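CHD4 stayed lower in both lines, LIG1 lower in U937 and ORC5 lower in the average of both lines, each past the threshold, under all alternatives tried at an adjusted p of 0.05. With a replicate block within each line, members called were 16 in MV4-11, 5 in U937 and 13 in the average, against 1, 1 and 6 without it, and 2351, 1474 and 3256 genes in all. In U937 these were CCNE2 (limma adjusted p = 0.0288) and CDK2 (0.0171), which were higher, and CHAF1B (0.0119), LIG1 (0.0119) and MCM4 (0.0262), which were lower. Of all genes, 657 were called higher and 817 lower in U937 with this block. Same-numbered U937 arrays correlated at 0.0023, 0.351 and 0.336, and CHD4 shRNA replicate 1 did not correlate best with its own number, so U937 numbers were not taken as pairs. With the block in MV4-11 alone, chosen after seeing the data, the MV4-11 count was 6 and the average 8. It raised the count of all genes called to 1903 in MV4-11 and 1168 in U937, against 1127 and 761. The replicate block changed no call of the difference between lines. At an adjusted p under 0.01 the counts were 0 in MV4-11, 0 in U937, 2 in the average and 0 in the scrambled controls, and under 0.1 they were 5 in MV4-11 and 5 in the controls. Counts of all genes at these thresholds are not given here. The controls' count was 2 (GINS1 and RRM2) with quantile normalization, with trend and robust fitting, and with only the groups compared. In the controls these fits called 737, 693 and 826 of all genes, against 655 in the main fit. With only the groups compared, 513 of all genes were called in MV4-11, against 1127. Leaving out 1 array at a time gave 0 to 10 members in MV4-11, 1 in U937, 3 to 9 in the average, 0 in the difference and 0 to 4 in the controls. Among all genes the same fits called 422 to 1964 in MV4-11, 306 to 947 in U937 and 1690 to 2697 in the average. They called 0 to 4 of all genes in the difference and 317 to 844 in the controls, so the counts of all genes moved too. The average count of 3 came without MV4-11 CHD4 shRNA replicate 1 or 2, MV4-11 scrambled replicate 1 or 2, or U937 scrambled replicate 1, and 9 without MV4-11 CHD4 shRNA replicate 3. The controls' count of 4 (CDT1, PRIM2, GINS1 and RRM2) came without MV4-11 CHD4 shRNA replicate 2 or 3. CDK2 also lost its call in the average with median centring (adjusted p = 0.0557). The median member change stayed above 0 in MV4-11 (0.05 to 0.21) and turned in U937 (-0.16 to 0.035). The cause was not tested for any of these. No direction of a called member reversed. With 3 arrays per group, the 95% intervals give the precision of the changes, while calls were set by the adjusted p. An interval could lie clear of 0 without a call, as for LIG1 in MV4-11 in the unpaired fit. Differences near 0.2 were called in the average of both lines for some members under some alternatives (ORC4 at -0.21 with a replicate block) and not for others.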

Other observations

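Between the scrambled controls, genes of the pathway outside the list of 51 were also read. Of 62 measured, 8 were higher in MV4-11 than in U937 (12.9%, against 2.97% of all genes) at a limma adjusted p under 0.05. Lower in MV4-11 was 1 (1.61%, against 2.51% of all genes), and all are named here after their values were seen. The histone chaperone ASF1A was 1.71-fold higher in MV4-11 (adjusted p = 2.16e-04). Higher CDK inhibitors were CDKN1B (1.60-fold; adjusted p = 0.00416), CDKN1A (1.85-fold; adjusted p = 0.0267) and CDKN2A (1.27-fold; adjusted p = 0.0286). The nucleotide enzymes DCK, a deoxycytidine kinase, and SAMHD1, a dNTP hydrolase, were 1.67-fold and 2.01-fold higher (adjusted p = 0.0226 and 0.0429). The polymerase delta subunit POLD4 and the phosphatase CDC25B were 1.37-fold and 1.31-fold higher, and the histone chaperone subunit SUPT16H was 1.36-fold lower. Both lists share these control arrays with the depletion comparisons, and the difference between the lists was not tested.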
